A study of Cucumis sativus with 12 samples.

Results

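The genes described here are the heat shock proteins and heat stress transcription factors of cucumber (Cucumis sativus), measured by RNA-seq in leaves over a day of cold. They were chosen by words in their deposited descriptions, with earlier results of these data known. A gene was a member if its description contained "heat shock" or "heat stress transcription factor" and did not contain "dnaJ". This gave 65 of the 24317 genes in the table that holds all 4 times. The members were 25 small heat shock proteins, 11 HSP70, 6 HSP90, 21 transcription factors and 2 activators of the HSP90 ATPase. No gene was described as HSP101 with these words, so that subgroup had 0 members.

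The plants were seedlings of the North China-type inbred line JinYan No. 4 with 3 true leaves, grown at 28/18 °C with 16 h of day and 8 h of night. Cold was 15/6 °C with 12 h of day and 12 h of night, and leaves were taken at 0 h (no cold), 3 h, 12 h and 24 h, with 3 libraries at each time. All 12 libraries came from the same line, and no mutant or transgene was involved. No untreated plants were taken at 3, 12 or 24 h, so at 3 and 12 h the length of cold and the hour of the day cannot be told apart. The length of the day changed together with the temperature. The study's methods do not give the hour at which cold began. Light and temperature (15 or 6 °C) at each later sampling are therefore not known, and they too cannot be told apart from the length of cold. According to the study's methods the libraries of a time are biological replicates, and how plants were allotted to them was not stated there.

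Heat shock proteins are molecular chaperones that bind unfolded proteins. Small heat shock proteins hold unfolding proteins in a state from which they can be refolded, without using ATP. HSP70 and HSP90 fold or refold proteins through cycles of ATP hydrolysis, and HSP101 pulls proteins out of aggregates. In plants their genes are switched on by heat stress transcription factors (HSFs), which bind heat shock elements in promoters. Class A factors carry an activation motif, and many factors of class B lack it and repress. These genes are best known from heat, but several are also known to respond to cold, salt and oxidative stress.

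Values are FPKM (fragments per kilobase of transcript, scaled to the mapped fragments of the library), which are per length and can be set side by side between genes. Fold changes are on the scale of log2(FPKM + 0.5), which understates the change of genes at low levels, and come from a limma fit over the 17497 genes that reached 0.5 FPKM in 3 or more libraries. A call needed a log2 fold change past 1 in either direction together with an adjusted p (Benjamini-Hochberg, over every tested gene) under 0.05. Of the 65 members, 59 passed this filter: 23 small heat shock proteins, 11 HSP70, 6 HSP90, 18 factors and 1 activator. The 6 others were CsaV3_5G008770 (18.1 kDa class I), listed at 0 in every library, CsaV3_6G001540 (17.8 kDa class I), the factors CsaV3_1G043540 (B-4b-like), CsaV3_2G026600 (B-4) and CsaV3_4G011850 (B-3), and CsaV3_5G015400 (activator). The highest value of these 6 in any library was 0.652 FPKM.

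The summed FPKM of a library lay between 561513 and 586297, and 18678 to 19551 genes were above 0. The sources used here do not give the absolute depth, and relative depth, read from the lowest values, spanned a ratio of 1.40. That reading allowed each library at most a 1.5-fold difference from the first 0 h library, so a larger one could not have been seen. Each estimate rested on 15 to 35 ratios. Libraries of the same time correlated at r of 0.983 to 0.990 over genes and those of different times at 0.824 to 0.946. At 24 h, replicate 2 stood apart on the second principal component (12.1, against 31.4 and 35.6 in the other 24 h libraries), and its values are given separately where they matter. The 19 leaf mesophyll genes (chlorophyll a-b binding proteins and Rubisco small subunits) summed to at least 28088 FPKM in every library, so the defining markers of leaf were present. In bulk leaves, fewer cells of a type and less RNA per cell cannot be told apart.

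After 3 h of cold, 35 of the 59 tested members were called higher against 0 h and 2 lower. That is 59.3% and 3.39% of the members, where 9.89% of all tested genes were higher and 5.39% lower. At 12 h, the members gave 19 higher and 7 lower calls (32.2% and 11.9%), where 9.62% of all tested genes were higher and 16.6% lower. For 24 h these were 30 and 5 (50.8% and 8.47%), where 13.2% of all tested genes were higher and 18.1% lower. Without 24 h replicate 2 the members gave 31 and 5. Their median log2 fold change was 1.38 at 3 h, 0.35 at 12 h and 1.07 at 24 h, beside 0.03, -0.23 and -0.17 for all tested genes. The median of all genes thus shifted down at 12 and 24 h. When the libraries were rescaled by median ratios, this shift vanished (-0.01 at 12 h and 0.01 at 24 h), and the members' medians were 1.33, 0.61 and 1.24. Under that rescaling 53.9% of all calls at 12 h and 53.5% at 24 h were higher, against 36.6% and 42.3% as deposited. The members then gave 21 higher and 5 lower at 12 h and 32 higher and 4 lower at 24 h. Of all tested genes 13.2% were then higher and 11.3% lower at 12 h, and 16% higher and 13.9% lower at 24 h.

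Marker lists of leaf cell types moved over the same times as the members. The mesophyll list summed to 28088 to 32579 FPKM at 0 h, 29027 to 32850 FPKM at 3 h, 66282 to 80447 FPKM at 12 h and 38445 to 53983 FPKM at 24 h. It was highest at 12 h, where 27 of the 59 members (45.8%) were lower than at 3 h, beside 15.3% of all tested genes. With median-ratio rescaling 21 members were lower, beside 10% of all tested genes. Xylem and lignified-cell genes (19 genes, 1 of them listed at 0 in every library) summed to 18.4 to 20.6 FPKM at 0 h, 17.1 to 20.04 FPKM at 3 h, 10.8 to 12.1 FPKM at 12 h and 14.2 to 18.2 FPKM at 24 h. Phloem genes (12 genes) summed to 490 to 818 FPKM at 0 h and 340 to 540 FPKM at the later times. The cuticle and epidermis list (84 genes, 8 of them listed at 0 in every library) was highest at 3 h. It summed to 1125 to 1223 FPKM at 3 h, against 660 to 684 FPKM at 0 h, and to 464 to 605 FPKM at 12 and 24 h. The part of these lists in the members' changes was not tested.

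**Figure D1:**
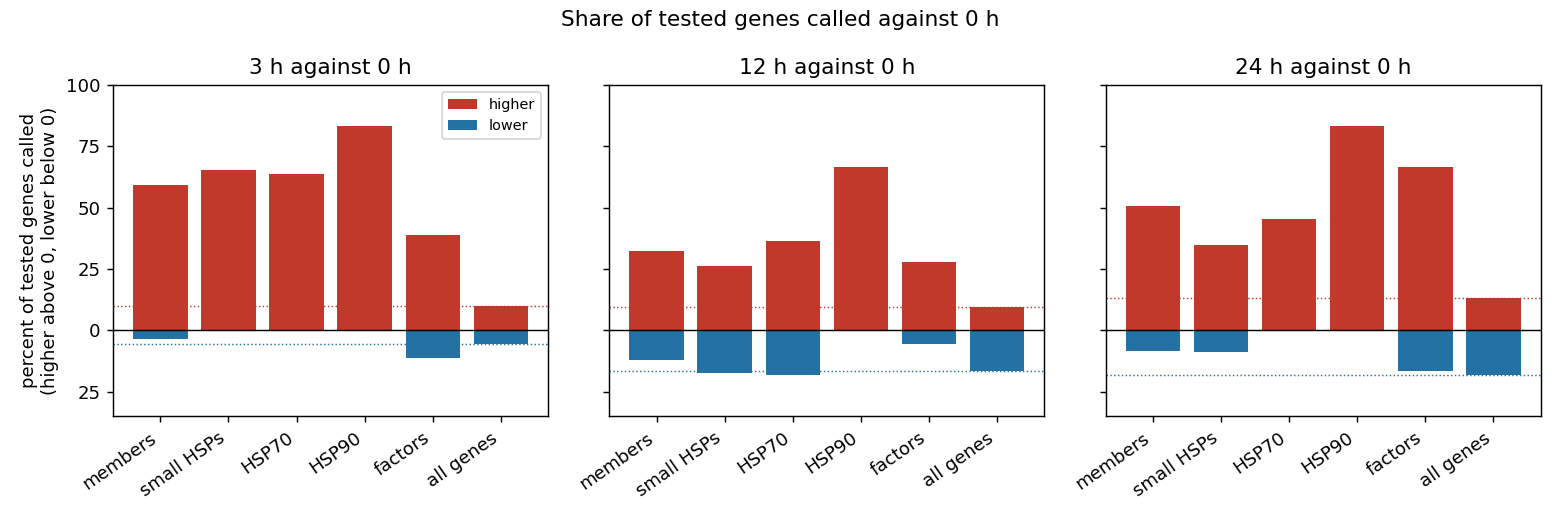
Percent of tested genes called higher (red, above 0) or lower (blue, below 0) than at 0 h, at 3, 12 and 24 h of cold, for all 59 tested members, the small heat shock proteins (23), HSP70 (11), HSP90 (6), the factors (18) and all 17497 tested genes, whose shares are also the dotted lines. The members' share of higher calls was 59.3% at 3 h, 32.2% at 12 h and 50.8% at 24 h, against 9.89%, 9.62% and 13.2% of all tested genes.

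The members followed several time courses rather than one. By mean FPKM, 3 of the 59 tested members were highest at 0 h, 31 at 3 h, 5 at 12 h, but 20 at 24 h. The time of the highest mean was not counted over all tested genes, so such counts, here and in the subgroups, have no background. Between the later times, 8 members were higher and 27 lower at 12 h than at 3 h, where 6% of all tested genes were higher and 15.3% lower. With median-ratio rescaling this split became 11 higher and 21 lower, where 9.27% of all tested genes were higher and 10% lower. At 24 h against 12 h, 14 members were higher and 4 lower, where 8.46% of all tested genes were higher and 5.2% lower. Of the 35 members higher at 3 h than at 0 h, 23 were lower at 12 h than at 3 h (65.7%, against 50.8% of the 1731 genes higher at 3 h). Of the same 35, 14 were still called higher at 12 h (40%, against 37.0%) and 22 at 24 h (62.9%, against 56.8%). These comparisons share the 0 h or 3 h libraries. In all, 14 members were higher at each of the later times, 47 were called at some time, and 12 at none. These totals were not counted over all tested genes either, so they have no background.

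**Figure D2:**
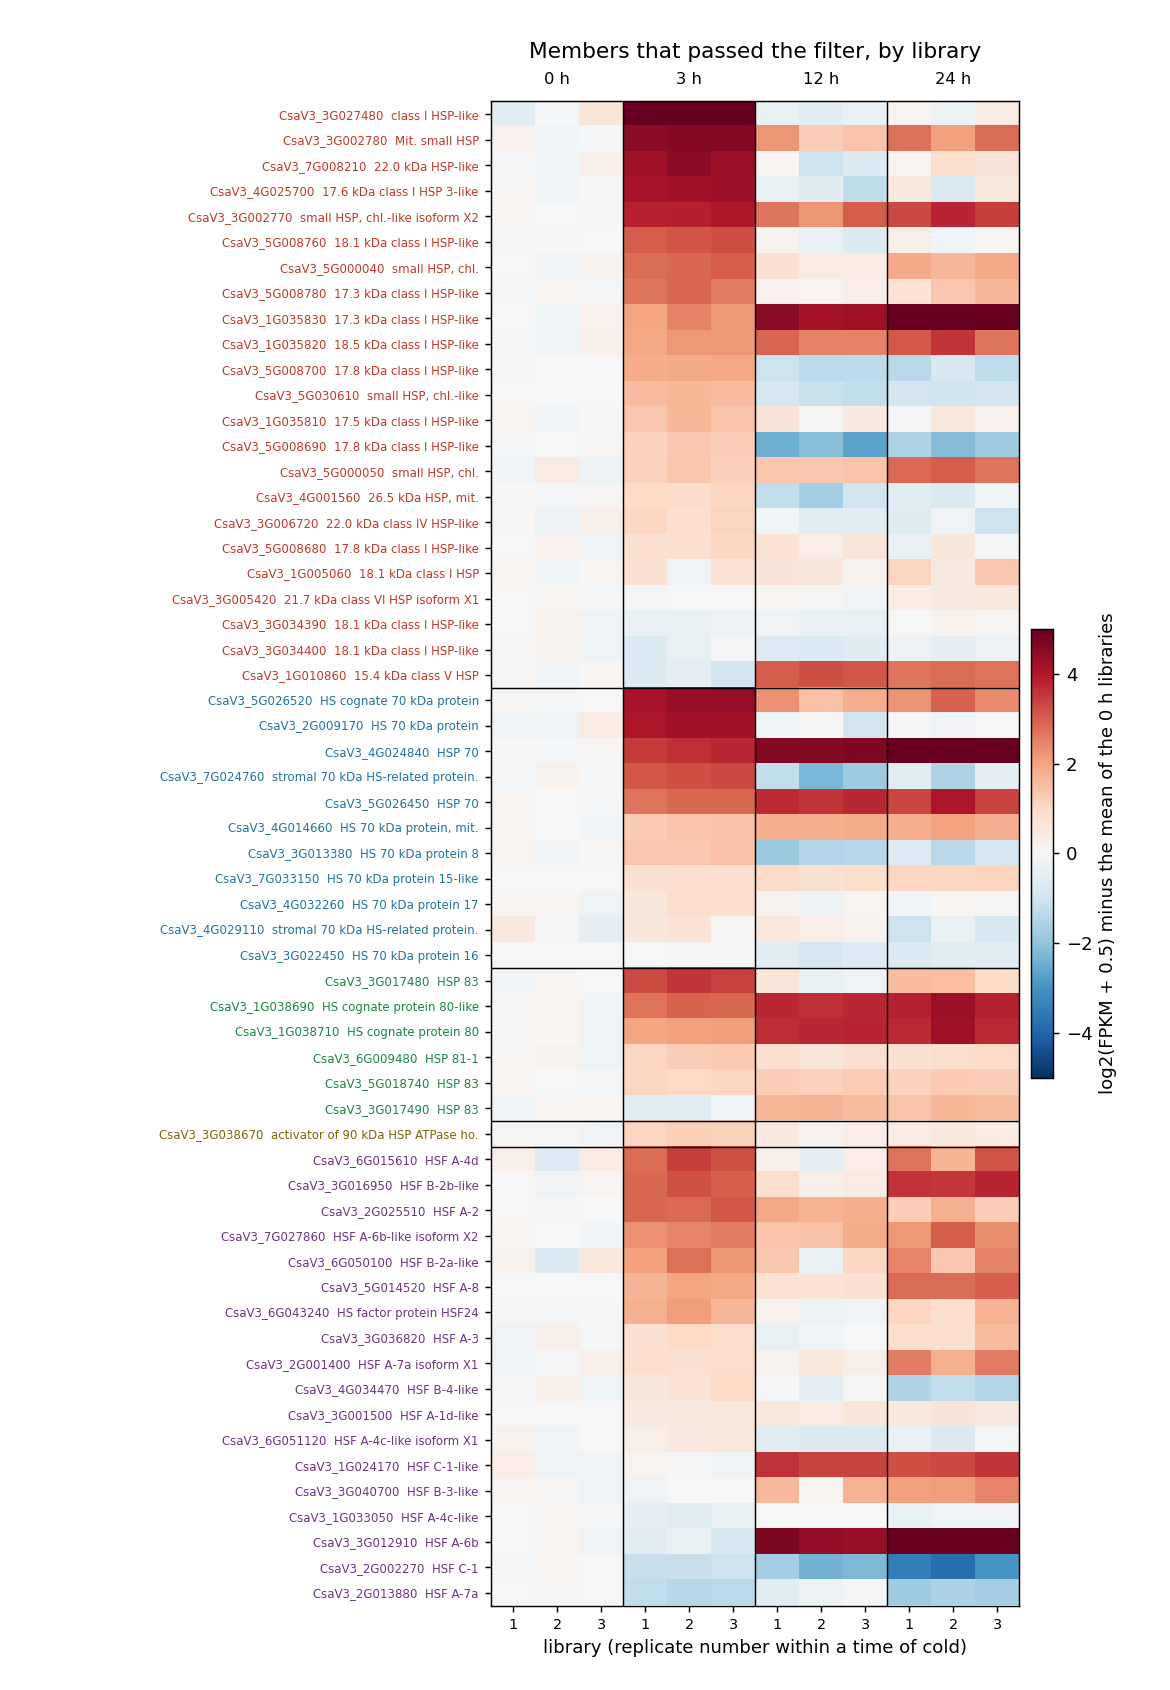
Heat map of the 59 members that passed the filter (rows, labelled by identifier and shortened description, coloured by subgroup) in the 12 libraries (columns, 3 replicates at 0, 3, 12 and 24 h). Colour gives log2(FPKM + 0.5) minus the mean of the 0 h libraries, red for higher and blue for lower, with values past the ends of the scale at the end colour. Of the 15 small heat shock proteins called higher at 3 h, 12 were lower at 12 h than at 3 h, beside 50.8% of all genes higher at 3 h. CsaV3_1G035830, CsaV3_4G024840 and CsaV3_3G012910 were reddest at 24 h.

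By summed FPKM, by calls and by median, the small heat shock proteins peaked at 3 h. Of 23 tested against 0 h, calls of a higher level numbered 15, 6 and 8 at 3, 12 and 24 h, and calls of a lower level 0, 4 and 2. Higher calls were 65.2%, 26.1% and 34.8% of them, where 9.89%, 9.62% and 13.2% of all tested genes were higher. Lower calls were 0%, 17.4% and 8.7%, where 5.39%, 16.6% and 18.1% of all tested genes were lower. The lower share at 12 h was thus near that of all genes. Of the 15 higher at 3 h, 12 were lower at 12 h than at 3 h, beside 50.8% of all genes higher at 3 h. The median log2 fold change of the 23 was 1.58 at 3 h, 0.01 at 12 h and 0.22 at 24 h. The summed FPKM of all 25 genes was 314 ± 11.9 before cold, then 1439 ± 76.9 (3 h), 464 ± 43.4 (12 h) and 727 ± 74.7 (24 h; SD, n = 3). By deposited description they divided into 15 of class I, which is cytosolic, 4 of the chloroplast, 2 of the mitochondrion, 1 each of classes IV, V and VI, and 1 with no class given. The highest mean FPKM was at 3 h in 15 of the 23, while 6 had it at 24 h and 1 each at 12 h and 0 h. All 25 carried the same deposited KEGG orthology entry.

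The most abundant of them, CsaV3_5G008760 (18.1 kDa class I), had 54.4, 60.2 and 58.2 FPKM at 0 h, then 468, 507 and 536 (3 h), 64.5, 44.9 and 36.1 (12 h) and 70.2, 52.2 and 61.2 (24 h). The 3 h libraries stood far above all others, which overlapped one another. It was higher at 3 h by 3.12 ± 0.17 (SE, limma adjusted p = 4.03e-08) on the log2 scale, and -0.29 at 12 h and 0.08 at 24 h were not called. CsaV3_3G027480, a class I-like gene, had the largest log2 fold change of the members at 3 h. It had 0, 0.177 and 0.577 FPKM at 0 h, then 24.7, 29.7 and 28.4 (3 h), 0.0642, 0 and 0.065 (12 h) and 0.284, 0.102 and 0.44 (24 h). Outside 3 h it was under 0.6 FPKM in every library, and its log2 fold change at 3 h was 5.29 ± 0.25 (SE, limma adjusted p = 1.1e-08).

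Other small heat shock proteins outside the naming rule, chosen here after their values were seen, had the same brief peak. CsaV3_4G025700 (17.6 kDa class I) had 14.1, 12.3 and 13.9 FPKM at 0 h, then 238, 263 and 272 (3 h), 10.5, 8.62 and 5.2 (12 h) and 18.9, 7.78 and 19.5 (24 h). Its log2 fold change was 4.22 at 3 h against 0 h and -4.96 at 12 h against 3 h. CsaV3_7G008210 (22.0 kDa, no class given) had 3.46, 3.41 and 4.52 FPKM at 0 h, then 79.7, 97.9 and 83.9 (3 h), 4.06, 1.51 and 2.16 (12 h) and 4.23, 7.09 and 6.24 (24 h). The fitted changes were 4.36 and -4.91 for the same comparisons. In both genes the 12 h and 24 h libraries were not called against 0 h. CsaV3_1G035810 (17.5 kDa class I) was the fifth gene called at 3 h alone, at 1.47.

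Most genes for organelle proteins rose at 3 h as well. All 4 chloroplast genes were called higher at 3 h, and 3 of them at 24 h. At 12 h there were 2 higher calls and 1 lower call among them. Of all tested genes 9.89%, 9.62% and 13.2% were higher at 3, 12 and 24 h, and 16.6% were lower at 12 h. CsaV3_3G002770 (chloroplastic-like isoform X2) had 6.34, 6.03 and 5.48 FPKM at 0 h, then 92.4, 95.4 and 102 (3 h), 40.6, 29.2 and 51.9 (12 h) and 63.8, 89.9 and 69.3 (24 h). Every later library lay above every 0 h library, and the 12 h libraries lay below those of 3 h and 24 h. Its log2 fold changes were 3.91 ± 0.18 (SE, limma adjusted p = 1.05e-08) at 3 h, 2.64 at 12 h and 3.52 ± 0.18 (SE, limma adjusted p = 4.13e-09) at 24 h. CsaV3_3G002780, a mitochondrial small heat shock protein whose identifier follows on directly, had 2.69, 1.96 and 2.12 FPKM at 0 h, then 61.3, 64.9 and 64.9 (3 h), 12.1, 5.97 and 6.85 (12 h) and 17.9, 10.9 and 18.3 (24 h). It too was higher at each later time, by 4.55 ± 0.24 (SE, limma adjusted p = 3.13e-08) at 3 h, 1.62 at 12 h and 2.53 at 24 h. The other mitochondrial gene, CsaV3_4G001560 (26.5 kDa), had 5.6, 4.98 and 5.71 FPKM at 0 h, then 11.4, 10.7 and 11.9 (3 h), 2.03, 1.31 and 2.6 (12 h) and 3.47, 3.11 and 4.63 (24 h). At 3 h its log2 fold change of 0.998 lay just under the threshold, and at 12 h it was lower (-1.29 ± 0.18, SE, limma adjusted p = 3.87e-05).

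A group of 3 genes rose at 3 h and was lower than at 0 h by 12 h. CsaV3_5G008690 (17.8 kDa class I) had 4.55, 4.95 and 5.18 FPKM at 0 h, then 11.4, 13.3 and 12 (3 h), 0.504, 0.74 and 0.352 (12 h) and 1.37, 0.683 and 1.04 (24 h). The 3 h libraries lay above those of 0 h, and all 12 h and 24 h libraries lay below them. Its log2 fold change was 1.23 at 3 h, -2.40 ± 0.18 (SE, limma adjusted p = 1.26e-07) at 12 h and -1.84 ± 0.18 (SE, limma adjusted p = 1.17e-06) at 24 h. CsaV3_5G008700, with the same description, had 9.6, 10.1 and 10.2 FPKM at 0 h, then 36.9, 38.2 and 39.6 (3 h), 4.47, 3.62 and 3.73 (12 h) and 3.46, 5.57 and 3.89 (24 h). It was called higher at 3 h (1.89) and lower at 12 h (-1.24) and 24 h (-1.15), but with median-ratio rescaling the later values were -0.997 and -0.955 and neither was called. The chloroplastic-like CsaV3_5G030610 had 48.3, 49.2 and 48.7 FPKM at 0 h, then 143, 153 and 144 (3 h), 27.3, 22.3 and 20.7 (12 h) and 25, 24 and 24.8 (24 h). It was called higher at 3 h (1.58) and lower at 12 h (-1.05). The 12 h call was lost with median-ratio rescaling, with quantile normalization and without 12 h replicate 3.

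Other small heat shock proteins had their highest level at 12 h or 24 h. CsaV3_1G035830 (17.3 kDa class I) had 4.0, 3.4 and 4.64 FPKM at 0 h, then 17.3, 24.7 and 19.8 (3 h), 103, 79.9 and 85.2 (12 h) and 266, 318 and 185 (24 h), climbing with each time without overlap between times. At 24 h its log2 fold change was 5.80 ± 0.19 (SE, limma adjusted p = 1.22e-10), a 55.9-fold difference and the largest of any member against 0 h, and it was higher at 24 h than at 12 h by 1.49 ± 0.19 (SE, limma adjusted p = 4.75e-05). The class V gene CsaV3_1G010860 (15.4 kDa) had 10.9, 9.48 and 11.5 FPKM at 0 h, then 6.43, 7.32 and 5.24 (3 h), 90.7, 102 and 94.6 (12 h) and 69.8, 76.3 and 71.8 (24 h). Its 3 h libraries lay below those of 0 h (-0.71, not called), and it was higher by 3.11 ± 0.11 (SE, limma adjusted p = 2.02e-10) at 12 h and 2.72 ± 0.11 (SE, limma adjusted p = 4.29e-10) at 24 h. CsaV3_5G000050 (chloroplastic) had 0.601, 1.12 and 0.52 FPKM at 0 h, then 2.19, 2.7 and 2.29 (3 h), 2.72, 2.64 and 2.81 (12 h) and 8.27, 9.48 and 7.4 (24 h) and was higher at each time, most at 24 h (2.86). Its call at 3 h (1.24) was lost with a pseudocount of 1.

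The members called at no time included the most abundant small heat shock protein of the 0 h leaves. CsaV3_3G034390 (18.1 kDa class I-like) had 111, 125 and 99.5 FPKM at 0 h, then 88.3, 87.2 and 92.7 (3 h), 97.7, 89.4 and 85.2 (12 h) and 109, 126 and 116 (24 h), and its log2 fold changes stayed between -0.32 and 0.06. Its neighbour by identifier, CsaV3_3G034400, with the same description, lay between 3.98 and 7.65 FPKM in all libraries and was not called. The other uncalled genes were the class IV gene CsaV3_3G006720 (0.995 at 3 h, just under the threshold), the class VI gene CsaV3_3G005420 (21.7 kDa, 13.7 to 21.8 FPKM), CsaV3_1G005060 and CsaV3_5G008680.

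Several members carry identifiers whose numbers follow one another: 19 members fell into 8 such runs, and these may be similar copies. The sources used here do not say how reads shared between near-identical genes were counted, so single values in these runs are uncertain. In 3 of the 8 runs the tested genes shared 1 pattern of calls against 0 h over the later times, and in the other 5 they did not. The pair CsaV3_3G002770 and CsaV3_3G002780 and the pair CsaV3_1G038690 and CsaV3_1G038710 were higher at every later time, and CsaV3_3G034390 and CsaV3_3G034400 were called at none. In another run CsaV3_5G008690 and CsaV3_5G008700 shared their calls, but CsaV3_5G008680 was not called. CsaV3_1G035810, CsaV3_1G035820 and CsaV3_1G035830 form 1 run: the first was called at 3 h alone, while CsaV3_1G035820 (18.5 kDa class I-like) had 1.56, 1.38 and 2.07 FPKM at 0 h, then 7.82, 9.12 and 9.16 (3 h), 15.5, 11.5 and 11.4 (12 h) and 17.4, 25 and 13.3 (24 h) and was higher at each later time. Their log2 fold changes at 24 h were 0.22, 3.10 and 5.80. CsaV3_5G000040, next to CsaV3_5G000050, had 2.64, 2.25 and 3.0 FPKM at 0 h, then 21, 22.2 and 24.8 (3 h), 4.77, 3.62 and 3.53 (12 h) and 11.2, 9.27 and 11.2 (24 h), with its peak at 3 h where the other had its peak at 24 h.

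**Figure D3:**
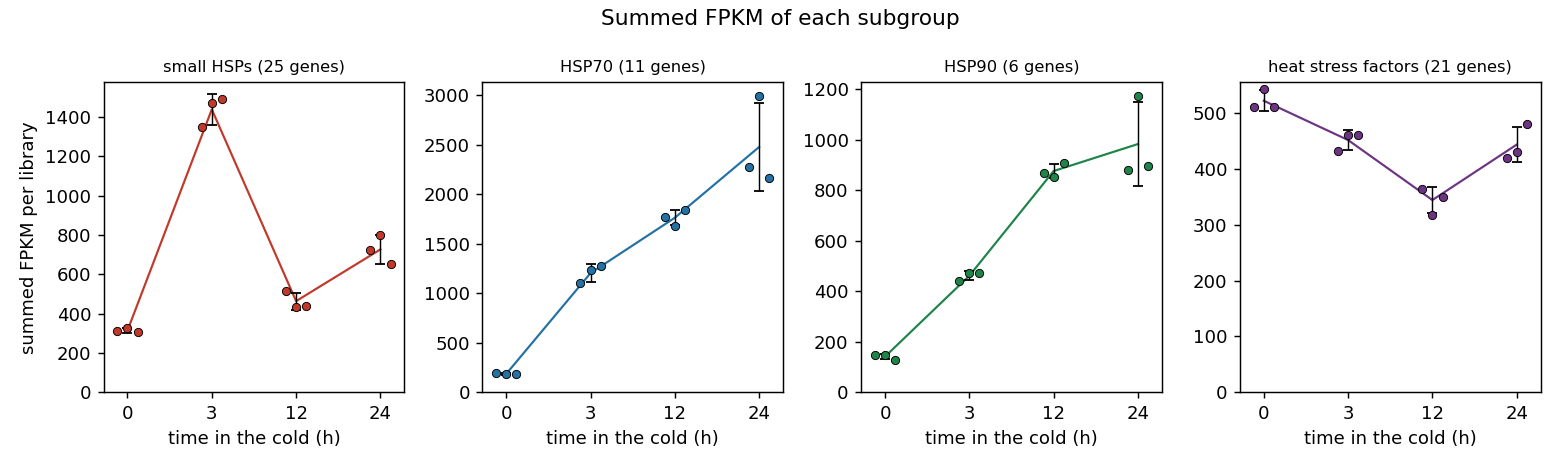
Summed FPKM per library of the small heat shock proteins (25 genes), HSP70 (11), HSP90 (6) and the heat stress factors (21) at 0, 3, 12 and 24 h of cold. Points are libraries, lines join the means and bars are SD (n = 3). Small heat shock proteins peaked at 3 h (1439 ± 76.9), while the HSP70 sum, led by CsaV3_4G024840, was highest at 24 h (2480 ± 447). For HSP90 only 24 h replicate 2 (1174) lay above the 12 h libraries (854 to 906).

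By mean FPKM, 7 of 11 HSP70 genes had their highest level at 3 h, while 1 abundant gene climbed to 24 h and carried the sum. Of these 7, 3 were not called against 0 h at any time (CsaV3_3G022450, CsaV3_4G029110 and CsaV3_4G032260). The summed FPKM of the 11 genes was 186 ± 8.13 before cold, then 1205 ± 91.6 (3 h), 1764 ± 77.7 (12 h) and 2480 ± 447 (24 h; SD, n = 3). At 24 h replicate 2 summed to 2992, against 2281 and 2166 in the other 24 h libraries, which still lay above all 12 h libraries. The leading gene, CsaV3_4G024840, made up 23.2% of the sum at 0 h and 72.0% at 24 h. Without it the other 10 genes summed to 143 ± 7.19 before cold, then 666 ± 44.3 (3 h), 693 ± 46.9 (12 h) and 694 ± 152 (24 h; SD, n = 3), and these later means lay within 1 SD of one another. By count, 7 of the 11 were called higher at 3 h, 4 at 12 h and 5 at 24 h, while the only lower calls were 2 at 12 h. Higher calls were 63.6%, 36.4% and 45.5% of them, where 9.89%, 9.62% and 13.2% of all tested genes were higher. The 2 lower calls at 12 h were 18.2%, near the 16.6% of all tested genes. The median log2 fold change of the subgroup was 1.39, 0.35 and 0.00 at 3, 12 and 24 h. At 12 h against 3 h, 0 HSP70 genes were called higher and 4 lower (36.4%, against 15.3% of all tested genes). At 24 h against 12 h, 0 were called higher and 1 lower (9.09%, against 5.2%).

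CsaV3_4G024840 (Heat shock protein 70) had 44.9, 40.1 and 44.2 FPKM at 0 h, then 487, 544 and 585 (3 h), 1055, 1043 and 1114 (12 h) and 1688, 2123 and 1547 (24 h), with no overlap between any 2 times. Its log2 fold change was 3.63 ± 0.11 (SE, limma adjusted p = 2.83e-10) at 3 h, 4.62 ± 0.11 (SE, limma adjusted p = 9.81e-12) at 12 h and 5.35 ± 0.11 (SE, limma adjusted p = 2.72e-12) at 24 h, which is 40.7-fold. CsaV3_5G026450, also described as Heat shock protein 70, had 40.9, 37.8 and 36.8 FPKM at 0 h, then 250.2, 288 and 287 (3 h), 514, 463 and 534 (12 h) and 390.0, 637 and 409.8 (24 h). It was higher by 2.82, 3.69 and 3.58 at the same times. In both genes 24 h replicate 2 was the highest library. The mitochondrial HSP70 CsaV3_4G014660 had 18.9, 17.4 and 16 FPKM at 0 h, then 43.6, 47 and 49.1 (3 h), 61.8, 62.9 and 64.1 (12 h) and 62, 70.9 and 62.5 (24 h). Its log2 fold changes were 1.39, 1.83 and 1.87 ± 0.08 (SE, limma adjusted p = 6.6e-10) at 3, 12 and 24 h.

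In 4 other HSP70 genes, all called higher at 3 h, the level at 3 h was the highest. CsaV3_5G026520 (heat shock cognate 70 kDa) had 5.88, 5.27 and 5.58 FPKM at 0 h, then 106, 123 and 126 (3 h), 29, 16.3 and 20.9 (12 h) and 28.7, 46.6 and 30.5 (24 h). At 3 h it was higher by 4.28 ± 0.20 (SE, limma adjusted p = 1.36e-08), and at 12 h it was lower than at 3 h (-2.43) though still higher than at 0 h (1.86). At 24 h it was also higher than at 0 h (2.52). CsaV3_2G009170 (heat shock 70 kDa protein) had 1.96, 2.0 and 3.22 FPKM at 0 h, then 47.3, 52.1 and 53.6 (3 h), 2.0, 2.5 and 1.01 (12 h) and 2.23, 2.1 and 2.4 (24 h), so that only the 3 h libraries stood out. It was higher by 4.18 ± 0.22 (SE, limma adjusted p = 3.26e-08) at 3 h, and -0.34 and -0.05 at 12 and 24 h were not called. CsaV3_7G024760, described as a stromal HSP70 of the chloroplast, had 5.47, 6.69 and 5.44 FPKM at 0 h, then 54.2, 58.1 and 62.7 (3 h), 2.22, 0.786 and 1.34 (12 h) and 3.83, 1.65 and 3.99 (24 h). It was higher at 3 h by 3.21 ± 0.29 (SE, limma adjusted p = 2.01e-06) and lower at 12 h (-1.77 ± 0.29, SE, limma adjusted p = 0.000152). CsaV3_3G013380 (heat shock 70 kDa protein 8) had 2.56, 1.92 and 2.36 FPKM at 0 h, then 6.55, 6.51 and 7.11 (3 h), 0.26, 0.498 and 0.528 (12 h) and 1.27, 0.563 and 1.01 (24 h). This gene likewise was higher at 3 h (1.38) and lower at 12 h (-1.59).

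A second gene described as a stromal HSP70, CsaV3_4G029110, was not called against 0 h at any time, with 13.4, 8.72 and 6.84 FPKM at 0 h, then 13.9, 15.4 and 9.74 (3 h), 13.8, 11.7 and 10.7 (12 h) and 4.13, 7.34 and 5.16 (24 h). It was lower at 24 h than at 12 h (-1.08). Both genes described as stromal carried the same deposited KEGG orthology entry as CsaV3_4G024840 and CsaV3_5G026520, whose descriptions name no organelle. Their place in the chloroplast thus rests on the description alone. CsaV3_7G033150 (70 kDa protein 15-like) was called at 24 h (1.10), and its 12 h value of 0.86 was called after median-ratio rescaling. CsaV3_3G022450 (70 kDa protein 16) and CsaV3_4G032260 (70 kDa protein 17) were not called at any time.

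Among HSP90 genes, 5, 4 and 5 of the 6 were called higher at 3, 12 and 24 h, and 0 lower at any time. The higher calls were 83.3%, 66.7% and 83.3% of the 6, where 9.89%, 9.62% and 13.2% of all tested genes were higher. At the same times 5.39%, 16.6% and 18.1% of all tested genes were lower. With only 6 genes, 0 lower calls cannot be set apart from those shares. The summed FPKM of the 6 genes was 141 ± 10.6 before cold, then 461 ± 18.8 (3 h), 876 ± 27.6 (12 h) and 982 ± 166 (24 h; SD, n = 3). At 24 h replicate 2 summed to 1174, against 879 and 894 in the other 24 h libraries, which lay within the 12 h range of 854 to 906. The highest sum at 24 h thus rests on replicate 2. The deposited KEGG orthology gave 4 of the 6 an entry for cytosolic HSP90 and 2, CsaV3_5G018740 and CsaV3_6G009480, an entry for HSP90 of the endoplasmic reticulum, although their descriptions (heat shock protein 83 and 81-1) do not name it.

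CsaV3_1G038710 (heat shock cognate protein 80), the most abundant HSP90, had 32.2, 32.6 and 27.5 FPKM at 0 h, then 121, 129.9 and 132 (3 h), 404, 426 and 441 (12 h) and 412, 582 and 417 (24 h). It was higher by 2.04 ± 0.12 (SE, limma adjusted p = 5.55e-08) at 3 h, 3.76 at 12 h and 3.90 ± 0.12 (SE, limma adjusted p = 5.36e-11) at 24 h, and also at 12 h against 3 h, by 1.73. CsaV3_1G038690 (cognate protein 80-like) had 18.2, 19.1 and 15.9 FPKM at 0 h, then 118, 141 and 131 (3 h), 247, 228 and 247 (12 h) and 264, 364 and 258 (24 h). The log2 fold changes were 2.85, 3.73 and 4.01 ± 0.12 (SE, limma adjusted p = 5.41e-11) at 3, 12 and 24 h. At 24 h against 12 h neither was called, and for CsaV3_1G038710 only 24 h replicate 2 lay above the 12 h libraries. In both genes the 3 h libraries lay between those of 0 h and those of the 2 later times. CsaV3_5G018740 was the most abundant HSP90 at 0 h and changed less: it had 81.3, 75.9 and 70.5 FPKM at 0 h, then 158, 151 and 160.3 (3 h), 180.2, 169 and 185 (12 h) and 168, 190.1 and 181 (24 h), and log2 fold changes of 1.04, 1.23 and 1.24. Its 3 h call was lost without 0 h replicate 3.

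A pair of genes described as heat shock protein 83, with identifiers that follow one another, moved in opposite directions between 3 h and 12 h, and both were higher at 24 h than at 0 h. CsaV3_3G017480 had 0.878, 1.11 and 1.03 FPKM at 0 h, then 13.8, 17.4 and 15.7 (3 h), 1.78, 0.689 and 0.819 (12 h) and 3.88, 3.72 and 2.31 (24 h), and was higher by 3.42 ± 0.23 (SE, limma adjusted p = 1.9e-07) at 3 h. CsaV3_3G017490 had 2.84, 3.72 and 3.63 FPKM at 0 h, then 2.22, 2.21 and 2.85 (3 h), 11.8, 11.9 and 10.7 (12 h) and 9.77, 11.7 and 10.7 (24 h), and was not called at 3 h (-0.41). At 12 h against 3 h the first was lower (-3.39 ± 0.23, SE, limma adjusted p = 1.28e-07) and the second higher (2.04 ± 0.12, SE, limma adjusted p = 3.86e-08). At 24 h against 0 h the first was higher by 1.31 ± 0.23 (SE, limma adjusted p = 0.000269) and the second by 1.53 ± 0.12 (SE, limma adjusted p = 2.17e-07). CsaV3_3G017490 lies outside the naming rule and was chosen after its values were seen.

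The HSP90 ATPase activator CsaV3_3G038670 (homolog 1), a co-chaperone that speeds the HSP90 cycle, had 24.2, 24.6 and 21.5 FPKM at 0 h, then 49.9, 54.1 and 53.3 (3 h), 32, 26.6 and 29.5 (12 h) and 31.3, 33.8 and 30.4 (24 h). It was higher at 3 h by 1.15 ± 0.08 (SE, limma adjusted p = 2.54e-07), and 0.32 and 0.43 at 12 and 24 h were not called.

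**Figure D4:**
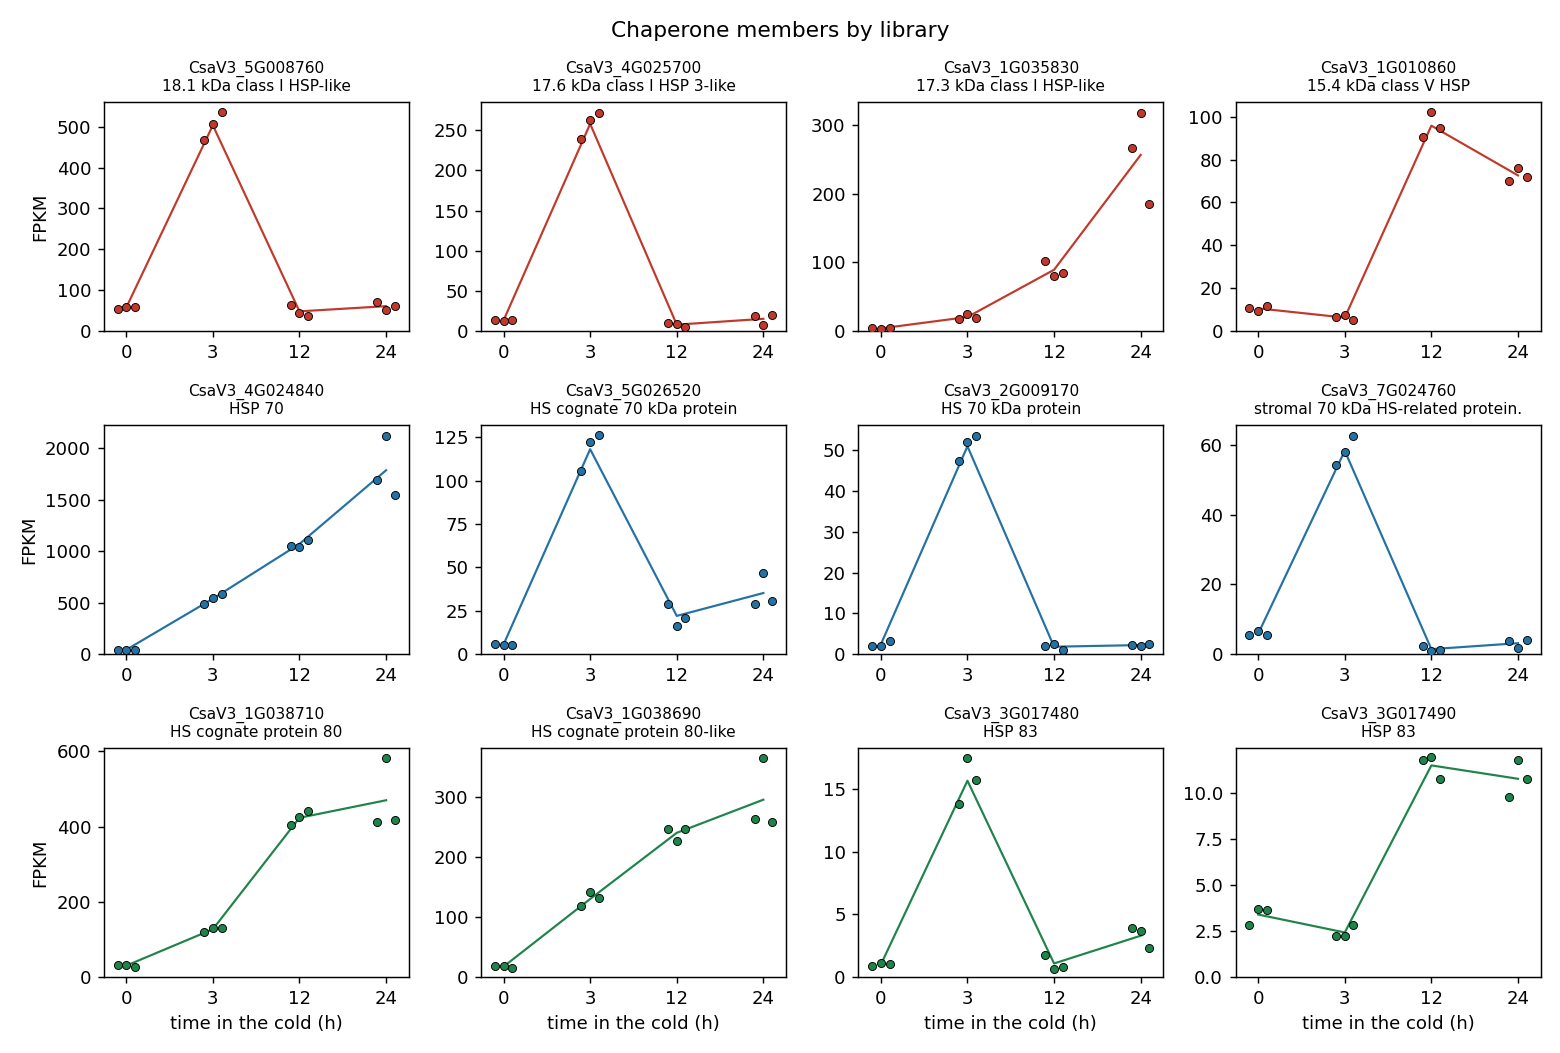
FPKM per library of 12 chaperone members at 0, 3, 12 and 24 h of cold (points, 3 libraries a time; the line joins the means; linear axes from 0, scaled per gene). The top row shows small heat shock proteins, the middle row HSP70 and the bottom row HSP90. CsaV3_5G008760, CsaV3_2G009170, CsaV3_7G024760 and CsaV3_3G017480 peaked at 3 h, while CsaV3_4G024840 was highest at 24 h and CsaV3_1G038710 was high at 12 h and 24 h, with only 24 h replicate 2 above the 12 h libraries.

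HSP101 is named ClpB in bacteria and in the deposited descriptions, so the ClpB genes, which are not members, stand in for it. CsaV3_1G002820 (ClpB1, the name that cytosolic HSP101 also carries in Arabidopsis) was listed at 0 in all 12 libraries. Mitochondrial ClpB4, CsaV3_4G036670, had 7.23, 8.1 and 6.71 FPKM at 0 h, then 17.9, 16.8 and 19.1 (3 h), 6.35, 5.85 and 5.81 (12 h) and 5.87, 7.38 and 6.87 (24 h). At 3 h it was higher by 1.23 ± 0.10 (SE, limma adjusted p = 7.24e-07). Chloroplastic ClpB3, CsaV3_3G026720, had 20.4, 21.5 and 21.4 FPKM at 0 h, then 36.8, 37.1 and 39.7 (3 h), 14.1, 11 and 10.8 (12 h) and 16.1, 14.2 and 16.2 (24 h), and was not called (0.83, -0.80 and -0.44).

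The transcription factors had more higher calls at 24 h than at 3 h, and each chaperone subgroup as many or fewer, a difference between subgroups that was not tested. Of 18 tested, 7, 5 and 12 were called higher at 3, 12 and 24 h, and 2, 1 and 3 lower. The higher calls were 38.9%, 27.8% and 66.7% of the factors, where 9.89%, 9.62% and 13.2% of all tested genes were higher. The lower calls were 11.1%, 5.56% and 16.7%, where 5.39%, 16.6% and 18.1% of all tested genes were lower, so that at 24 h the lower share was near that of all genes. Their median log2 fold change was 0.78 at 3 h, 0.43 at 12 h and 1.75 at 24 h. Their summed FPKM was 522 ± 18.8 before cold, then 451 ± 17.1 (3 h), 344 ± 23.5 (12 h) and 443 ± 31.9 (24 h; SD, n = 3), of which CsaV3_2G002270 made up 63.4% at 0 h. The 7 factors higher at 3 h were all higher at 24 h, and 5 of them were not called at 12 h.

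Factors higher at all 3 later times were A-2 and an A-6b-like gene. CsaV3_2G025510 (A-2, which in Arabidopsis sustains the heat response) had 3.25, 3.03 and 3.29 FPKM at 0 h, then 26.6, 25.9 and 31 (3 h), 13.7, 11.7 and 12.6 (12 h) and 8.07, 12.1 and 8.23 (24 h), highest at 3 h. Its log2 fold change was 2.94 ± 0.14 (SE, limma adjusted p = 9.91e-09) at 3 h, 1.83 at 12 h and 1.41 at 24 h. CsaV3_7G027860 (A-6b-like isoform X2) had 5.7, 5.36 and 4.79 FPKM at 0 h, then 27.4, 31.1 and 33.8 (3 h), 15.1, 15.4 and 20.2 (12 h) and 25.5, 46.7 and 28.1 (24 h), and log2 fold changes of 2.43, 1.58 and 2.50 ± 0.19 (SE, limma adjusted p = 2.01e-07).

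The 5 factors with peaks at 3 h and 24 h and no call at 12 h were B-2b-like, A-8, A-4d, HSF24 and B-2a-like. CsaV3_3G016950 (B-2b-like) had 11.1, 10.3 and 12.5 FPKM at 0 h, then 85.5, 106 and 93.6 (3 h), 21.2, 13.9 and 15.2 (12 h) and 145, 137 and 163 (24 h), and the 3 h and 24 h libraries lay clear of those of 0 h and 12 h. It was higher by 3.01 ± 0.14 (SE, limma adjusted p = 1.26e-08) at 3 h, lower at 12 h than at 3 h (-2.49) and higher at 24 h than at 12 h (3.13). At 24 h it was higher than at 0 h by 3.66 ± 0.14 (SE, limma adjusted p = 4.13e-10). CsaV3_5G014520 (A-8) had 2.42, 2.42 and 2.39 FPKM at 0 h, then 8.92, 10.9 and 10.5 (3 h), 4.27, 4.16 and 4.37 (12 h) and 19.6, 19.9 and 22.7 (24 h), with log2 fold changes of 1.86 at 3 h and 2.87 ± 0.09 (SE, limma adjusted p = 7.24e-11) at 24 h. Its 12 h libraries lay above those of 0 h as well, but the log2 fold change of 0.71 was under the threshold. CsaV3_6G043240 (HSF24, a name first given to a class B factor of tomato) had 3.81, 3.39 and 3.9 FPKM at 0 h, then 13.8, 17.4 and 12.6 (3 h), 4.2, 3.02 and 3.14 (12 h) and 8.37, 7.1 and 13.6 (24 h). It was called at 3 h (1.84) and at 24 h (1.23), and the 24 h call was lost without 24 h replicate 3 (0.97).

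Levels were lower in the other 2 of these 5. CsaV3_6G015610 (A-4d) had 0.503, 0.0442 and 0.627 FPKM at 0 h, then 5.47, 8.85 and 7.29 (3 h), 0.528, 0.14 and 0.557 (12 h) and 5.09, 2.27 and 7.1 (24 h). The gene was higher by 3.16 ± 0.37 (SE, limma adjusted p = 2.05e-05) at 3 h and 2.53 at 24 h. CsaV3_6G050100 (B-2a-like) had 0.403, 0 and 0.652 FPKM at 0 h, then 2.81, 4.98 and 3.17 (3 h), 1.54, 0.147 and 1.16 (12 h) and 3.92, 1.57 and 3.94 (24 h). Its level was higher by 2.33 ± 0.45 (SE, limma adjusted p = 0.000908) at 3 h and 2.10 at 24 h. At 12 h it was not called (0.69), but it was called higher at 12 h without 12 h replicate 2. In both genes 24 h replicate 2 was the lowest 24 h library.

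A group of 3 factors was higher at 12 h and 24 h but not at 3 h. CsaV3_3G012910 (A-6b) had 1.6, 1.76 and 1.35 FPKM at 0 h, then 0.881, 1.13 and 0.687 (3 h), 51.5, 43.8 and 42.2 (12 h) and 67.1, 66.2 and 74.1 (24 h). Its 3 h libraries lay below those of 0 h (-0.58, not called). It was higher by 4.48 ± 0.12 (SE, limma adjusted p = 3.59e-11) at 12 h and 5.07 ± 0.12 (SE, limma adjusted p = 9.75e-12) at 24 h, 33.7-fold. CsaV3_1G024170 (C-1-like) had 0.812, 0.465 and 0.408 FPKM at 0 h, then 0.652, 0.496 and 0.422 (3 h), 12.5, 10.4 and 10.3 (12 h) and 9.27, 9.91 and 12 (24 h), with log2 fold changes of 3.46 ± 0.16 (SE, limma adjusted p = 2.5e-09) and 3.37 at 12 h and 24 h. CsaV3_3G040700 (B-3-like) had 0.11, 0.0756 and 0 FPKM at 0 h, then 0, 0.0448 and 0.0538 (3 h), 1.22, 0.12 and 1.35 (12 h) and 1.79, 1.91 and 2.54 (24 h), so that 12 h replicate 2 stayed near the 0 h level. Its 12 h call (1.16) was lost with a pseudocount of 1 (0.76), without 12 h replicate 1 (0.94) and without 12 h replicate 3 (0.88), while at 24 h it was higher by 2.19 ± 0.33 (SE, limma adjusted p = 6.86e-05).

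At 24 h alone, an A-7a gene and A-3 were called higher. Their log2 fold changes at 3 h were 0.83 and 0.88, under the threshold, and both were called higher at 3 h with a pseudocount of 0.1. CsaV3_2G001400 (A-7a isoform X1) had 0.231, 0.283 and 0.472 FPKM at 0 h, then 0.965, 0.895 and 1.02 (3 h), 0.418, 0.695 and 0.517 (12 h) and 4.33, 2.35 and 4.31 (24 h). At 24 h it was higher by 2.30 ± 0.21 (SE, limma adjusted p = 7.57e-07). CsaV3_3G036820 (A-3, which acts downstream of DREB2A in Arabidopsis) had 1.46, 2.12 and 1.63 FPKM at 0 h, then 3.26, 3.91 and 3.59 (3 h), 1.22, 1.53 and 1.71 (12 h) and 3.53, 3.41 and 5.94 (24 h). Its log2 fold change at 24 h was 1.07, and this call was lost with a pseudocount of 1 (0.93), without 0 h replicate 1 (0.98) and without 24 h replicate 3 (0.84).

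The factors that fell included the most abundant ones of the 0 h leaf. CsaV3_2G002270 (C-1) had 321, 349 and 323 FPKM at 0 h, then 149.8, 149.5 and 158 (3 h), 99.3, 64.5 and 69.4 (12 h) and 29.9, 24 and 42.9 (24 h), lower at each time without overlap. The log2 differences were -1.12 ± 0.19 (SE, limma adjusted p = 0.000309) at 3 h, -2.11 ± 0.19 (SE, limma adjusted p = 8.77e-07) at 12 h and -3.38 ± 0.19 (SE, limma adjusted p = 1.07e-08) at 24 h. CsaV3_2G013880 (A-7a) had 103, 110.1 and 104 FPKM at 0 h, then 45.2, 39.3 and 41.1 (3 h), 74.1, 89.4 and 103 (12 h) and 30.7, 34.8 and 32.4 (24 h). It was lower at 3 h (-1.33 ± 0.10, SE, limma adjusted p = 5.42e-07) and 24 h (-1.68 ± 0.10, SE, limma adjusted p = 2.03e-08) and was not called at 12 h (-0.26). It was low at the times when the 5 factors above were high, being higher at 12 h than at 3 h (1.06) and lower at 24 h than at 12 h (-1.42). CsaV3_4G034470 (B-4-like) had 1.37, 1.8 and 1.15 FPKM at 0 h, then 2.31, 2.56 and 3.33 (3 h), 1.37, 0.873 and 1.47 (12 h) and 0.173, 0.323 and 0.189 (24 h). At 24 h it was lower (-1.40 ± 0.19, SE, limma adjusted p = 2.68e-05). That call was lost with a pseudocount of 1 (-0.98).

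Factors called at no time against 0 h were A-1d-like and a pair of A-4c-like genes. CsaV3_3G001500 (A-1d-like, of the A1 type that starts the heat response in Arabidopsis and tomato) had 24.6, 23.8 and 23.9 FPKM at 0 h, then 33.5, 34.4 and 34.6 (3 h), 35.2, 32.2 and 37.2 (12 h) and 35.1, 38.2 and 32.8 (24 h). All later libraries lay above those of 0 h, but its log2 fold changes of 0.50, 0.52 and 0.54 were under the threshold. CsaV3_1G033050 and CsaV3_6G051120 (A-4c-like) lay between 14.9 and 23.4 FPKM and between 3.88 and 10.003 FPKM in all libraries.

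**Figure D5:**
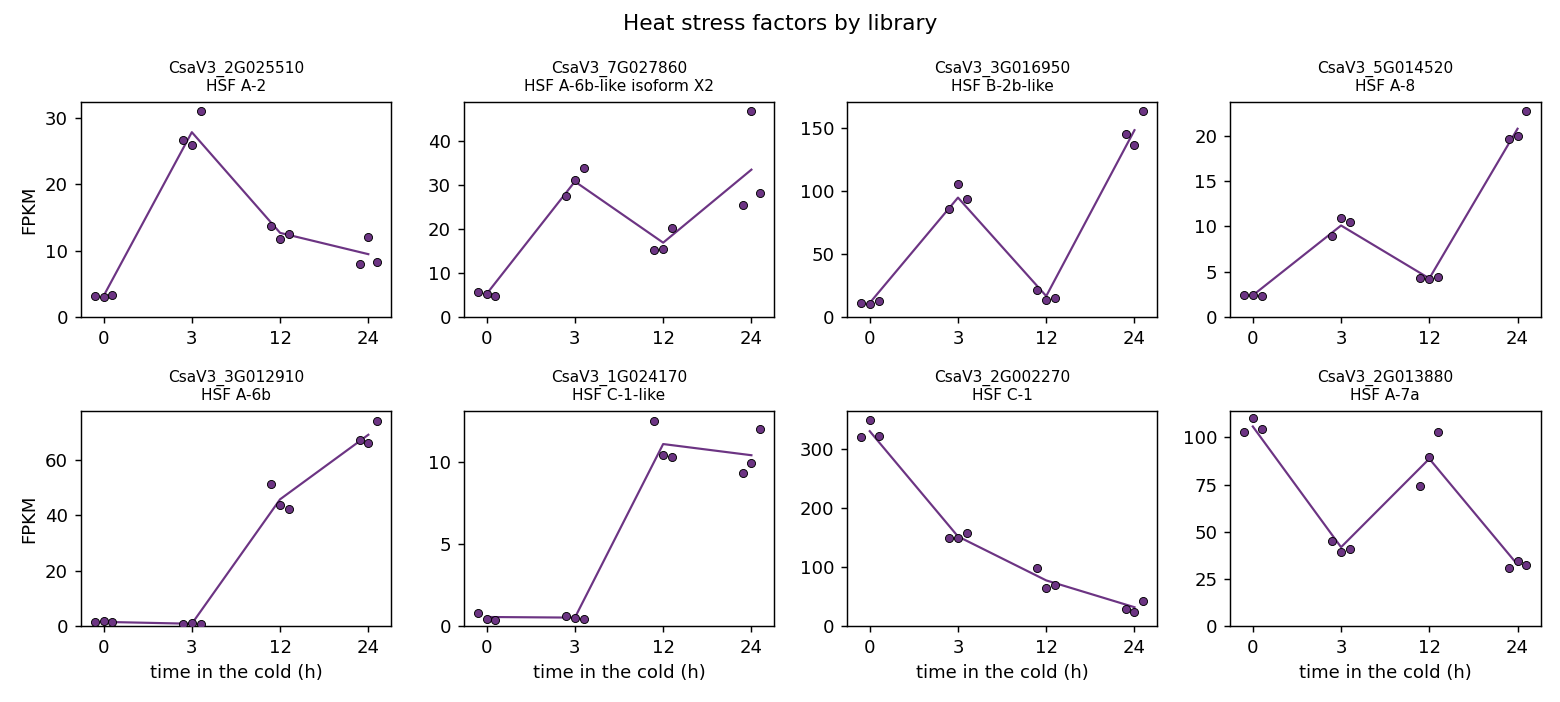
FPKM per library of 8 heat stress factors at 0, 3, 12 and 24 h of cold (points, 3 libraries a time; the line joins the means; linear axes from 0, scaled per gene). CsaV3_3G016950 and CsaV3_5G014520 were high at 3 h and 24 h and lower at 12 h. CsaV3_3G012910 and CsaV3_1G024170 were high at 12 h and 24 h, and CsaV3_2G002270 was lower at each later time than at 0 h.

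The other genes of the chaperone pathway were counted from a list set by description. The 42 partners of heat shock proteins (co-chaperones, chaperonins, BAG proteins, prefoldins, multiprotein-bridging factors, a trigger factor, ClpB, endoplasmic reticulum chaperones) included 41 tested genes, with 7 higher calls at each of the later times and 1, 4 and 3 lower calls at 3, 12 and 24 h. This was 17.1% higher at each time, where 9.89%, 9.62% and 13.2% of all tested genes were higher, and 2.44%, 9.76% and 7.32% lower, where 5.39%, 16.6% and 18.1% of all tested genes were lower. Their medians were 0.29, 0.20 and 0.26, beside 0.03, -0.23 and -0.17 for all tested genes. The genes named from this list were chosen after their values were seen. CsaV3_3G003080, the Hsp70-Hsp90 organizing protein 3-like that links the pair of chaperones, had 13.3, 12.3 and 12 FPKM at 0 h, then 45.7, 50.2 and 49.5 (3 h), 49.6, 52.3 and 57.1 (12 h) and 58.7, 78.1 and 62.4 (24 h). It was higher by 1.91, 2.04 and 2.35 ± 0.10 (SE, limma adjusted p = 7.35e-10) at 3, 12 and 24 h. CsaV3_7G026570 (FKBP62-like, an immunophilin that binds HSP90) was higher at 3 h alone, by 1.42, as was CsaV3_6G000970 (BAG6), by 1.80. The mitochondrial CsaV3_3G004810 (grpE homolog, the nucleotide exchange factor of mitochondrial HSP70) was higher at 12 h (1.43) and 24 h (1.68).

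The DnaJ genes, co-chaperones that deliver proteins to HSP70, crossed the members without being members. Of 57 genes 51 were tested, with 7, 7 and 12 higher calls and 3, 7 and 6 lower calls at 3, 12 and 24 h. Higher calls were 13.7%, 13.7% and 23.5% of them, where 9.89%, 9.62% and 13.2% of all tested genes were higher. Lower calls were 5.88%, 13.7% and 11.8%, where 5.39%, 16.6% and 18.1% of all tested genes were lower.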

How the data were processed

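The data are RNA-seq libraries of cucumber leaves, 3 for each of 4 times in the cold (0, 3, 12 and 24 h). The authors trimmed reads (cutadapt 1.9 and FastQC in the submitters' processing notes), mapped them with HISAT2 (cucumber genome Chinese Long V3) and deposited a FPKM value for each gene and library. Absolute depth and the program that computed FPKM were not given in the sources used here. One of 6 tables holds all 4 times and was used. The 5 others hold the same FPKM for fewer times and the authors' own fold changes, p-values and q-values, which were not used. A deposited value of 0.0001 stands for 0 and was set to 0.

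Genes that reached 0.5 FPKM in 3 or more libraries were taken as log2(FPKM + 0.5) into 1 limma model (version 3.58.1, R 4.3.3; lmFit, contrasts, then eBayes, trend and robust) of all 12 libraries with no replicate block. Calls needed a log2 fold change past 1 in either direction and an adjusted p under 0.05 (Benjamini-Hochberg, 17497 genes). Python 3.11.15 with pandas 2.3.3, numpy 2.4.6 and matplotlib 3.10.9 made the tables and figures. The fit was tested on simulated data. Exact permutation of 3 libraries against 3 was not used, since its smallest p is 0.1.

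Named genes were, in each subgroup, the 2 highest and 2 lowest called log2 fold changes at each time against 0 h, the most abundant member, and every called transcription factor (34 genes); others were chosen after their values were seen. The members and lists were chosen with earlier results of these data known. Alternatives were pseudocounts of 0.1 and 1, quantile normalization, median-ratio rescaling, a filter of 1 FPKM or none, the unadjusted p, a replicate block, a fit on just the 6 libraries compared, and leave-one-out. The identifiers matched 0 entries of the RefSeq gene table used here, so no coordinates or sequences are given.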

Additional observations from a re-analysis of the deposited data

Results flagged for a closer look

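A group of 5 members was higher than at 0 h at 3 h and lower than at 0 h at a later time. Genes so chosen differ by more than 2 log2 units between those times by construction, so the differences are given as a description. CsaV3_7G024760, described as a stromal HSP70, differed by -4.98 between 12 h and 3 h, and CsaV3_3G013380 (70 kDa protein 8) by -2.97. Among small heat shock proteins, CsaV3_5G008690 (17.8 kDa class I) differed by -3.64 between 12 h and 3 h and by -3.08 between 24 h and 3 h. CsaV3_5G008700, of the same description, differed by -3.13 and by -3.03 for the same times. The chloroplastic-like CsaV3_5G030610 differed by -2.63 between 12 h and 3 h. All 3 libraries of each later time lay below all 3 libraries of 3 h in these genes. The lower calls against 0 h of CsaV3_5G008700 and CsaV3_5G030610 were lost with median-ratio rescaling.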

How the results depend on the processing

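All 10 counts of members called higher or lower in the 5 comparisons stayed within 1.5 times the reported value under each of the 21 other settings. At 3 h the members called higher numbered 40 with a pseudocount of 0.1 and 34 with a pseudocount of 1, against 35, and 35 to 37 when 1 library was left out. Leaving out 1 library gave 18 to 20 higher at 12 h and 28 to 31 higher at 24 h. Of the 98 calls against 0 h, 88 were kept under all settings, 10 were lost under at least 1 of them, and 0 reversed. Of the lost calls, 9 are named with their settings above, and the other was CsaV3_5G008780 at 24 h with a pseudocount of 1. Near the threshold, CsaV3_4G001560 and CsaV3_3G006720 were called higher at 3 h with a pseudocount of 0.1 or without 0 h replicate 1, 0 h replicate 3 or 3 h replicate 2. With a pseudocount of 0.1, CsaV3_2G001400, CsaV3_3G036820 and CsaV3_5G008680 were called higher at 3 h as well. The replicate block changed no call against 0 h (35 higher and 2 lower at 3 h). Same-numbered libraries deviated from their group means with correlations of -0.16 to 0.16, over 0.1 in 2 of 18 pairs. Of the 12 libraries, 2 correlated best with their own number. Pairing by number was thus not seen, but deviations from means of 3 libraries cannot exclude it. Absolute depth is unknown, so no limit can be given for genes listed at 0.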
